A study of Mus musculus with 16 samples.

Results

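The 55 genes described here encode the soluble and membrane enzymes of phase II conjugation, namely 12 UDP-glucuronosyltransferases (UGT), 22 cytosolic and mitochondrial glutathione S-transferases (GST) and 21 sulfotransferases (SULT). They were chosen by their gene symbols (Ugt1a, Ugt2a, Ugt2b and Ugt3a with a number, the alpha, mu, pi, theta, kappa, omega and zeta classes of Gst with a number, and Sult with a number), so that no measured value entered the choice. The liver and the kidney tables each hold the same 32989 gene rows, and no symbol among the 55 occurred more than once. The libraries came from the liver and kidney of the same 8 male C57BL/6J mice, a common inbred laboratory strain for which the labels name no transgene or deletion. LD-conditioned mice (L63, L65, L86 and L104) lived under a fixed light-dark cycle with light from 8:00 to 20:00. ADV-conditioned mice (A75, A91, A94 and A115) lived under chronic jet lag, in which the light phase was moved forward by 8 hours once every 4 days. All 8 mice were killed after 85 weeks of their condition, at an age of 97 weeks, and each group therefore consisted of aged males only. Each of the 16 libraries was made from poly(A)-selected RNA of 1 organ of 1 mouse, so that n = 4 in each organ and condition throughout.

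Phase II enzymes attach a polar group to a drug, a hormone or a product of metabolism, after which the conjugate leaves the cell through export pumps and the body in bile or urine. UGT enzymes sit in the endoplasmic reticulum and transfer a sugar from a UDP-sugar, GST enzymes add glutathione to reactive electrophiles, and SULT enzymes move sulfate from the donor PAPS to hydroxyl groups of hormones, bile acids and catecholamines. Hepatocytes and the proximal tubule of the kidney are the classical sites of this chemistry. Many of the genes are known targets of nuclear receptors, of NRF2 and of the PAR bZIP clock output factors, and several differ between male and female mice.

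In units of 1000000 fragments, liver libraries had a depth of 22.7 to 26.3 and kidney libraries of 17.1 to 19.7. A single fragment of a gene with 1 kb of exons was worth 0.0380 to 0.0440 FPKM, the unit of fragments scaled to exon length and library total, in the livers and 0.0508 to 0.0584 FPKM in the kidneys. The 55 genes took between 1.16% and 1.5% of all liver fragments and between 0.485% and 0.671% of all kidney fragments. The summed level of 10 hepatocyte markers was between 62449 and 76889 FPKM in the livers and between 759 and 1108 FPKM in the kidneys, and that of 12 proximal tubule markers was between 21362 and 47848 FPKM in the kidneys, so that each organ held the markers of its label. A pair of libraries stood apart. The kidney of A115 lay below all other 7 kidneys in 55.4% of the genes tested and had a mitochondrial share of 33.8%, against 9.43% to 18.0% in the others. The liver of A94 lay above all other 7 livers in 49.7% of the genes tested, and the sum of 10 T, B and plasma cell markers was 701 FPKM there, against 6.04 to 19.7 FPKM in the others. Values that moved by over 1.5 times without A94 or A115 are given both ways for the genes that the results turn on. In such bulk samples, fewer cells of a type and less RNA per cell cannot be told apart, and 2 sequencing providers were used without a record of which library came from which, so that such a batch and the groups cannot be told apart either.

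In the liver, 38 of the 55 genes had a mean of at least 1 FPKM over the 8 libraries, of which 11 were UGT, 20 GST and 7 SULT genes. In the kidney the numbers were 30, 8, 17 and 5. A mean of at least 1 FPKM was reached in both organs by 29 genes and in neither by 16. Sult1c1, Sult2a5 and Sult2a6 were listed at 0 in every library. A gene was tested where its mean was above 0.5 after multiplying FPKM by the exon length in kb, and 39 of the 55 passed in the liver, 35 in the kidney, 31 in both organs and 12 in neither. FPKM is scaled to exon length, so that levels of different genes are compared on this scale below.

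**Figure D1:**
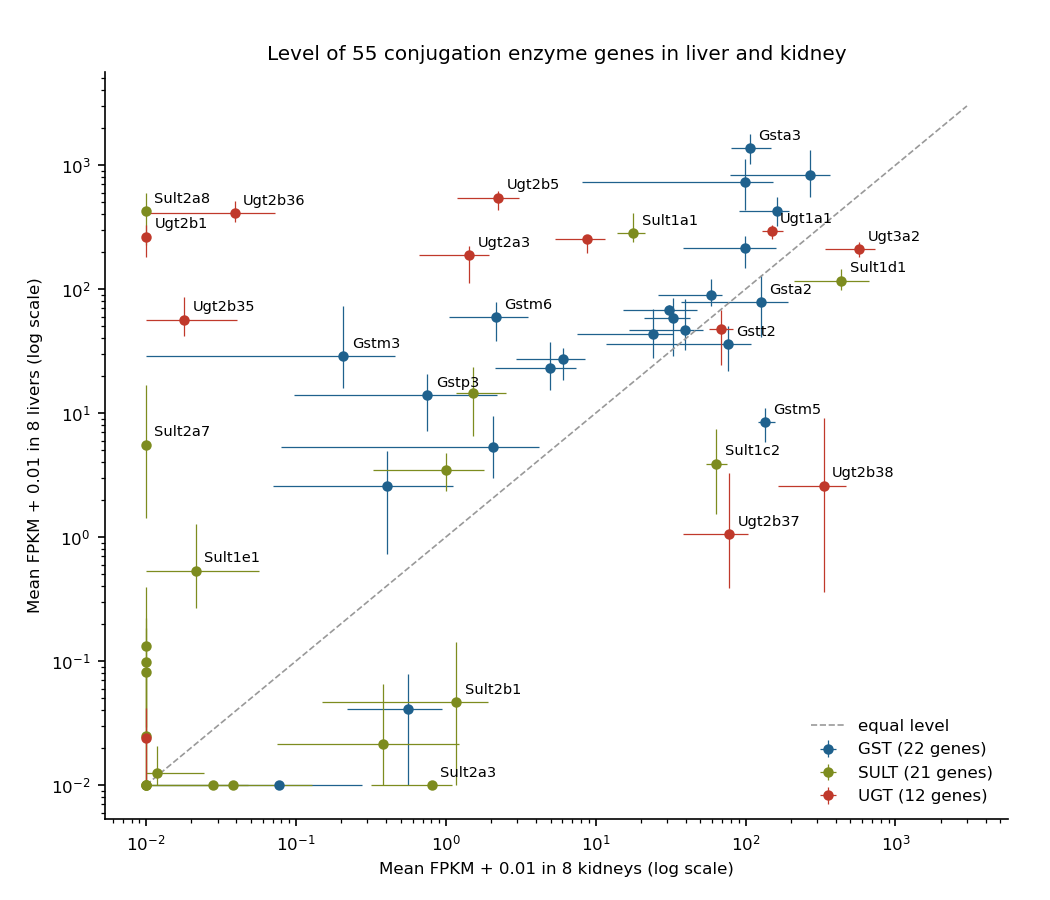
Mean FPKM + 0.01 of each of the 55 genes in the 8 livers (vertical axis) against the 8 kidneys (horizontal axis), both on log scales, coloured by family. Bars run from the lowest to the highest library, and the dashed line marks equal levels. Sult2a8, Ugt2b1 and Ugt2b36 have means of 424, 265 and 409 FPKM in the liver and lie at the left edge, where the kidney is at or near 0, and Ugt2b38, Ugt2b37, Sult1c2 and Gstm5 lie far below the line.

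The most abundant UGT transcripts of the liver were Ugt2b5, Ugt2b36 and the row named Ugt1a1, with means of 545 ± 68.1 (SD, n = 8), 409 and 292 FPKM, and these 3 made up 54.9% of the UGT sum. Ugt1a1 encodes the enzyme that conjugates bilirubin. The 9 Ugt1a genes of the GENCODE annotation share 3 identical exons, and 57.2% of the 100-base windows of the longest Ugt1a1 transcript occur in another Ugt1a gene, so that its values may contain reads of the whole UGT1A locus. In the kidney, Ugt3a2 led with a mean of 576 FPKM, followed by Ugt2b38 with 333 FPKM and Ugt1a1 with 149 FPKM, together 86.9% of the UGT sum. UGT3 enzymes are known to use other UDP-sugars than UDP-glucuronate. Ugt1a1 was thus the only UGT gene among the leading 3 of both organs.

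Among the GST genes of the liver, Gsta3 was highest with a mean of 1375 FPKM, and values of 1219, 1393, 1426 and 1281 in the LD-conditioned and 1473, 1796, 1028 and 1384 in the ADV-conditioned livers. Gsta3 encodes the alpha class enzyme by which mice detoxify aflatoxin. Gstm1 with 831 FPKM and Gstp1 with 731 FPKM followed, and the 3 genes held 70.6% of the GST sum. In the kidney the GST sum was spread more evenly, as Gstm1 (271 FPKM), Gstz1 (163 FPKM) and Gstm5 (135 FPKM) held 44.4% of it. Gstz1 encodes maleylacetoacetate isomerase of tyrosine breakdown, and its row overlaps Pomt2 and Gm6566 on the opposite strand, whose mean levels were at most 4.51 FPKM in either organ. Gstm5 overlaps 4933431E20Rik on the opposite strand, with means of 0.367 FPKM in the liver and 4.11 FPKM in the kidney. Gstp1 and Gstp2 share 52.8% of the windows of Gstp1, and 81.8% of those of Gsta1 occur in other genes. The authors dropped reads of low mapping quality, so that reads of such windows may be missing. The levels of these copies are therefore uncertain.

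The SULT sum rested almost wholly on a few genes in each organ. Sult2a8, which encodes a bile acid sulfotransferase of the mouse liver, Sult1a1, a phenol sulfotransferase, and Sult1d1, a catecholamine sulfotransferase, held 96.7% of it in the liver, with means of 424, 283 and 117 FPKM. In the kidney Sult1d1 had a mean of 436 FPKM, Sult1c2 of 63.8 FPKM and Sult1a1 of 17.8 FPKM, which was 99.1% of the sum. Sult1e1, the oestrogen sulfotransferase, had a mean of 0.524 FPKM in the liver. The brain-type Sult4a1 stayed at 0.372 FPKM in the kidney and 0.0115 FPKM in the liver.

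Mice differed in these levels within each organ. Among the genes with a mean of at least 1 FPKM, the coefficient of variation over the 8 libraries had a median of 25.9% in the liver, from 6.92% for Gsto1 to 107% for Ugt2b38, and a median of 29.1% in the kidney, from 10.3% for Gstm5 to 57.4% for Gstp2.

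The question of which organ carried a gene was tested in a limma fit of all 16 libraries, in which 39 of the 55 genes passed the filter. In LD-conditioned mice, 24 of them were higher in the liver and 8 higher in the kidney at a Benjamini-Hochberg adjusted p under 0.05, where 11.0% of the 14379 genes tested were called higher in the liver and 55.3% higher in the kidney. In ADV-conditioned mice, 28 were higher in the liver and 7 in the kidney, beside 11.2% and 51.2% of all genes. Genes that pass the filter through 1 organ alone had to differ, and among the 31 genes that passed in both organs 17 were liver-higher and 7 kidney-higher under LD, against 21 and 6 under ADV. The shares of all genes given here are not restricted to genes that passed in both organs. The median difference of all genes tested was −0.79 on the log2 scale under LD, toward the kidney, and −0.68 under ADV. Scaling by median ratio size factors moved these medians to −0.03 and 0.02 and the shares of all genes to 25.0% and 29.5% under LD and to 24.6% and 26.8% under ADV. With that scaling 29 of the 39 genes were called higher in the liver and 7 higher in the kidney under LD, and 29 and 6 under ADV.

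Each family had genes of both kinds. Of 11 UGT genes tested under LD, 7 were liver-higher and 4 kidney-higher. Of 20 GST genes, 12 were higher in the liver and 1, Gstm5, in the kidney. Of 8 SULT genes, 5 were higher in the liver and 3 in the kidney. Since a gene that passed the filter through 1 organ alone had to differ, the genes that passed in both organs are also given. Among these, 4 of 8 UGT genes were liver-higher and 4 kidney-higher under LD, against 10 and 1 of 18 GST genes and 3 and 2 of 5 SULT genes. Under ADV the counts were 4 and 3 for UGT, 14 and 1 for GST and 3 and 2 for SULT genes. Under both conditions alike, 24 genes were called higher in the liver and 7 higher in the kidney, 5 were called under 1 condition only, 3 under neither, and 0 changed direction. Genes that passed the filter through 1 organ alone are among the 24 and the 7. The share of all genes called alike under both conditions was not counted.

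Among the liver-higher genes with large differences under both conditions were Sult2a8, Ugt2b36, Ugt2b1, Ugt2b35, Ugt2b5, Ugt2a3, Gstm3 and Sult2a7. Sult2a8, Ugt2b1 and Sult2a7 had no fragment in any of the 8 kidneys. Taking 3 fragments over the 8 kidneys together as the limit that a count of 0 allows, Sult2a8 was at least 44251-fold, Ugt2b1 at least 32866-fold and Sult2a7 at least 240.5-fold higher in the liver. Ugt2b36 had 8 fragments over the 8 kidneys against 147744 over the 8 livers, a ratio of the mean levels of 14071, and Ugt2b35 had 4 against 36413. Ugt2b5 was 245-fold and Ugt2a3 133-fold higher in the liver. For Gstm3, a mu class GST, the difference on the log2(FPKM + 0.1) scale was 6.00 ± 0.50 (SE) under LD and 7.20 ± 0.50 under ADV. Gstm3, Sult2a8, Sult2a7, Ugt2b1, Ugt2b35 and Ugt2b36 passed the filter through the liver alone and had to differ, so that no p is given for them.

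The 7 genes that were kidney-higher under both conditions were Ugt2b38, Ugt2b37, Sult1c2, Gstm5, Sult2b1, Sult1d1 and Ugt3a2. Ugt2b38 was 129-fold and Ugt2b37 74.9-fold higher in the kidney by their mean levels, and their log2 differences (liver minus kidney) were −7.11 ± 0.55 and −6.17 ± 0.43 under LD. Sult1c2 was 16.3-fold, Gstm5 15.9-fold, Sult1d1 3.73-fold and Ugt3a2 2.75-fold higher. Sult2b1, whose enzyme sulfates cholesterol, had a mean of 1.17 FPKM in the kidney and 0.0368 FPKM in the liver, and passed the filter through the kidney alone. Sult1d1 lost its call under ADV, where its log2 difference was −1.70, with median ratio size factors and without A115 (−0.53, limma adjusted p = 0.101) or A94 (−0.90, limma adjusted p = 0.0837). With median ratio size factors, the difference of Ugt3a2 under ADV shrank from −1.08 to −0.35 and was no longer called (limma adjusted p = 0.197). Ugt3a1, a further UGT gene, was called kidney-higher under LD (−0.63 ± 0.25, limma adjusted p = 0.0332) and not under ADV (−0.49 ± 0.25, limma adjusted p = 0.0933), where it was called with the mouse as a block, which pairs the organs (limma adjusted p = 0.0380). With median ratio size factors its difference turned to 0.18 ± 0.32 under LD and 0.23 ± 0.32 under ADV and was called under neither (limma adjusted p = 0.666 and 0.566). Sult2a3 was another kidney transcript, with a mean of 0.799 FPKM there and no fragment in the 8 livers, which makes it at least 43.6-fold higher in the kidney.

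Gstm2, Gsta2 and Gstt2 reached at least 1 FPKM in both organs. They were called under neither condition in the fit of all mice without a block and with the deposited scaling. With the mouse as a block Gstt2 was called kidney-higher under ADV (limma adjusted p = 0.0451). It was also called there with totals without the mitochondrial genes (−1.25, limma adjusted p = 0.0208). Gstm2 measured 46.9, 43.7, 37.5 and 32.0 FPKM in the LD-conditioned livers and 30.1, 35.7, 41.8 and 39.9 FPKM in the LD-conditioned kidneys, and these values overlapped. Its log2 difference was 0.11 ± 0.33 under LD and 0.42 ± 0.33 under ADV, and it was called liver-higher with median ratio size factors (0.92 and 1.15, limma adjusted p = 0.00343 and 0.000643). With quantile normalization it was called liver-higher under ADV (0.70, limma adjusted p = 0.0292) and not under LD. The log2 difference of Gsta2 was −0.46 ± 0.47 under LD and −0.74 ± 0.47 under ADV, and that of Gstt2 −0.83 ± 0.50 and −1.11 ± 0.50. Without mouse A115 Gstt2 was called kidney-higher under both conditions, with −0.83 and −1.79 (limma adjusted p = 0.000191 and 5.81e-07), and Gsta2 under ADV with −1.28 (limma adjusted p = 0.00542). Gsta2 was not called with median ratio size factors and without A115 (−0.40, limma adjusted p = 0.396) or without both A94 and A115 (−0.81, limma adjusted p = 0.0550). With median ratio size factors and without A115, Gstt2 stood at −0.02 under LD and −0.91 under ADV, so that its call under LD rested on the scaling.

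Several of the genes with large organ differences were neighbours. On chromosome 5 the 9 Ugt2 genes lie between bases 86889770 (the end of Ugt2b34) and 87490871 (the start of Ugt2a1) of GRCm38, and Sult1b1, Sult1d1 and Sult1e1 follow up to base 87591611. Along this stretch the order of the genes did not follow the organ. Ugt2b34, Ugt2b1, Ugt2b35, Ugt2b36 and Ugt2b5 were liver-higher, Ugt2b37 was kidney-higher, the next gene Ugt2a3 was liver-higher, and Ugt2b38 was kidney-higher again. Ugt2a1 had a mean of 0.0140 FPKM in the liver and no fragment in the kidneys, and 94.9% of its windows occur in other genes. Of the SULT1 neighbours, Sult1b1, known for thyroid hormone sulfation, was liver-higher (14.6 against 1.5 FPKM), Sult1d1 was kidney-higher, and Sult1e1 was seen almost only in the liver, with 124 fragments over the 8 livers and 2 over the 8 kidneys.

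**Figure D2:**
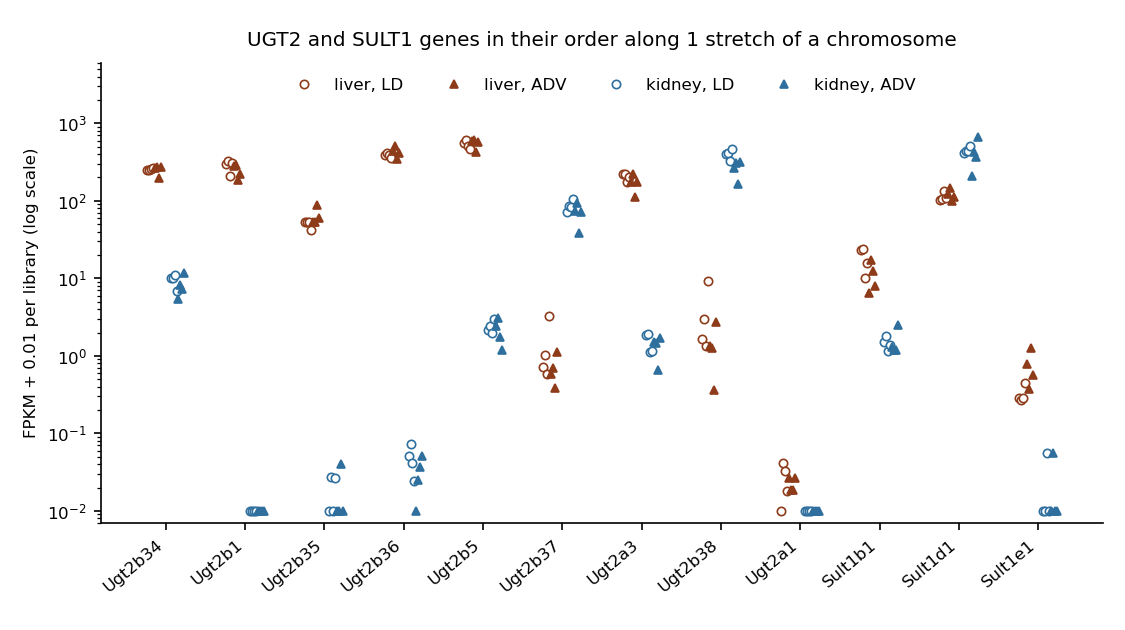
FPKM + 0.01 on a log scale in each library for the 12 UGT2 and SULT1 genes, in the order in which they lie along the chromosome. Brown marks are livers and blue marks kidneys, with open circles for LD-conditioned and filled triangles for ADV-conditioned mice. Ugt2b5 sits between 432 and 615 FPKM in the livers and between 1.18 and 3.05 FPKM in the kidneys, and Ugt2b38 between 0.349 and 9.11 FPKM in the livers and between 164 and 466 FPKM in the kidneys.

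Ugt2b5, Ugt2b37 and Ugt2b38 carried opposite organ patterns on closely similar sequence, which is why the 250 bases before their starts are shown. The sequences are from RefSeq (GRCm38.p6, minus strand, 5′ to 3′) and lie at chr5:87424204-87424453 for Ugt2b38, chr5:87254789-87255038 for Ugt2b37 and chr5:87140341-87140590 for Ugt2b5. Capitals mark the bases of Ugt2b37 and Ugt2b5 that differ from Ugt2b38 in a global alignment or have no base of it beside them.
Ugt2b38: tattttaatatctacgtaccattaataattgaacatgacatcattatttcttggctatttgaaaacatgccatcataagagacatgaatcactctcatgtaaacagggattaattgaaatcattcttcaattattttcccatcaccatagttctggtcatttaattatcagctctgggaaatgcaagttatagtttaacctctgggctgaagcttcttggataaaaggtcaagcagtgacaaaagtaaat
Ugt2b37: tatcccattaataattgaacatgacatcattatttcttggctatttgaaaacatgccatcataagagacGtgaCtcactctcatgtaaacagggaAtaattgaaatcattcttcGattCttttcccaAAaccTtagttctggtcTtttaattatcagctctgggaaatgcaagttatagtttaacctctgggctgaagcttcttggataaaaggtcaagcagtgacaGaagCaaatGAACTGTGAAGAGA
Ugt2b5: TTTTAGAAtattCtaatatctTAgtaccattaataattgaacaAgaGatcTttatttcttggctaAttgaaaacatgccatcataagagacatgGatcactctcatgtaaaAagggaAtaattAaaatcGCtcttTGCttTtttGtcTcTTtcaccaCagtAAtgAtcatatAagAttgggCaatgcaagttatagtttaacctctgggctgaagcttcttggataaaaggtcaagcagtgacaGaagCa
Over the alignment, Ugt2b37 and Ugt2b38, both kidney-higher, were identical in 85.2% of the columns. Ugt2b38 and the liver-higher Ugt2b5 were identical in 81.5%, and Ugt2b37 and Ugt2b5 in 73%. Columns with a gap were counted as not identical. The printed stretches are offset from each other, so that the order of these values can reflect where each one begins. The other pairs among the 9 Ugt2 genes were identical in 46.1% to 60.4%. Thus the closest upstream sequence of Ugt2b5 belonged to a gene of the opposite organ pattern. The transcripts of Ugt2b5 and Ugt2b38 share 24.7% of the 100-base windows of Ugt2b5 and 24.2% of those of Ugt2b38. Reads of these windows may be dropped for low mapping quality or placed at the other gene. The values of both genes are therefore uncertain in both organs, while each has its high level in its own organ.

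Of the 55 genes, 48 had an entry among the 32851 RefSeq promoters, each 250 bases before to 50 bases after a start, and 5 motifs were looked for in them on both strands. The E-box of the core clock (CACGTG) was found in 7.15% of all promoters, which gave 8.09% of the 27025 genes they belong to, and in 0 of the 48 genes. The D-box of the PAR bZIP factors (TTANGTAA) was found in 2.32% of promoters (2.72% of genes) and in 2 of the 48, Ugt2b1 and Sult1a1. The antioxidant response element (TGACNNNGC) was found in 12.4% of promoters (14.0% of genes) and in 3 of the 48, Gsta3, Gstm5 and Gstm7, and the core of the xenobiotic response element (GCGTG) in 32.4% of promoters (35.2% of genes) and in 9 of the 48. The HNF1 motif (GTTAATNAT), named for a factor of liver and kidney tubule cells, was found in 0.801% of promoters (0.940% of genes) and in 6 of the 48 genes (12.5%), which were Ugt1a1, Sult1d1, Sult2a3, Sult2a4, Sult2a5 and Sult2a6. Of these, Ugt1a1 and Sult1d1 exceeded 100 FPKM in both organs, and their 250 bases before the start are shown for that reason, at chr1:88211709-88211958 on the plus strand and chr5:87569007-87569256 on the minus strand (RefSeq, GRCm38.p6), with the HNF1 match in capitals.
Ugt1a1: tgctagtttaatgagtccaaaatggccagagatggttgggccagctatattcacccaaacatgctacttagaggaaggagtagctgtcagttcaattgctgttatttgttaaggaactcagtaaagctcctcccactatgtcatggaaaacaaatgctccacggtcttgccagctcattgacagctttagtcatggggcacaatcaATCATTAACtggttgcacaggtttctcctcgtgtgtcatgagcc
Sult1d1: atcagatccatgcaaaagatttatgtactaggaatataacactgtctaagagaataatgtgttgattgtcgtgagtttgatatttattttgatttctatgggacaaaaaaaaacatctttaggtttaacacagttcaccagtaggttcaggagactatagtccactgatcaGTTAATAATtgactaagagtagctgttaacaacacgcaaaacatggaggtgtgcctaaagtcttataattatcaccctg
The matches begin at positions −44 and −79 from the start. Sult2a3, Sult2a4, Sult2a5 and Sult2a6 carry the same letters, GTTAATGAT, and belong to the same subfamily. Their matches are therefore not independent of each other in the share of 12.5%. Sult2a5 and Sult2a6 carry a match and were listed at 0 in every library. A match is a run of letters, and binding of a factor was not measured here.

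The comparison of ADV-conditioned with LD-conditioned livers asks whether the conjugation genes differed in level after chronic jet lag. The paper took livers and kidneys in a single window of hours after the last light-on. It reports that ADV-conditioned mice did not resynchronize to the shifted cycle. In either organ, a change of level and a shift in daily timing therefore cannot be told apart. Of the 39 genes tested, 0 passed a limma adjusted p of 0.05, where 1 of all 12835 genes did (0.00779%). At an unadjusted p under 0.05, 2 of the 39 were higher and 1 lower, and 8.65% of all genes were higher and 3.13% lower at that limit. The 4 ADV values lay above all 4 LD values in 0 and below them in 1 of the 39 genes, beside 6.94% and 1.89% of all genes. The estimates pointed up in 20 and down in 19 genes, with a median of 0.01 on the log2 scale, where 65.7% of all genes pointed up with a median of 0.10. Without A94 they pointed up in 24 and down in 15 genes, with a median of 0.10 against 0.02 over all genes, so that their median lay above that of all genes. In that fit 4 were higher and 3 lower at the unadjusted limit, beside 8.80% and 5.66% of all genes. Leaving out single mice gave 0 genes at the adjusted limit in each case. Markers of other cell types are given beside these counts. All 12 macrophage and monocyte markers, all 10 T, B and plasma cell markers and all 10 stellate cell and fibroblast markers had positive estimates (medians 0.81, 1.43 and 0.97), as did 4 of 5 cholangiocyte and 7 of 8 endothelial markers tested (medians 1.11 and 0.27), while 6 of 10 hepatocyte markers had negative ones (median −0.07), and 0 of all these were called. The T, B and plasma cell marker sum was 701 FPKM in A94 and 7.01 to 19.7 FPKM in the other ADV-conditioned livers. Under LD it was 6.04 to 11.5 FPKM. For the cholangiocyte markers these values were 247, 26.9 to 54.6 and 20.1 to 27.8 FPKM. For the stellate cell and fibroblast markers they were 382, 176 to 234 and 130 to 146 FPKM. For the macrophage and monocyte markers they were 633, 213 to 276 and 144 to 228 FPKM. Of liver genes known to differ between the sexes, 9 of 12 male-biased and 8 of 9 female-biased ones had negative estimates. Their part in the values below was not tested.

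Gstt2, a theta class GST, had the smallest p. Its levels were 50.4, 50.4, 45.6 and 35.9 FPKM in the LD-conditioned livers and 21.7, 32.6, 26.5 and 22.9 FPKM in the ADV-conditioned livers. Every ADV-conditioned liver lay below every LD-conditioned liver, and the difference was −0.82 ± 0.16 (SE) on the log2 scale. It did not pass the adjustment over all genes (limma p = 0.000467, adjusted p = 0.234), and the two-sided exact permutation test gave 0.0286, the smallest p that 4 mice against 4 allow. Over all alternatives the estimate stayed between −0.93 and −0.74 and the limma adjusted p between 0.0818 and 0.814. The neighbouring theta class genes Gstt1 and Gstt3 had estimates of −0.13 ± 0.17 and 0.32 ± 0.25, and without A94 of 0.02 ± 0.13 and 0.22 ± 0.25.

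Gstm1, the most abundant mu class GST, measured 563, 598, 938 and 554 FPKM under LD and 769, 1002, 1321 and 903 FPKM under ADV. Only L86 of the LD-conditioned livers reached into the ADV range. The difference was 0.60 ± 0.22, with limma p = 0.0213 and adjusted p = 0.373 (exact permutation p = 0.0857). Of the 7 mu class genes, 5 had positive and 2 negative estimates, with a median of 0.36 against 0.10 over all genes, and Gstm3, Gstm4 and Gstm2 had 0.64 ± 0.38, 0.46 ± 0.26 and 0.36 ± 0.24. Their highest ADV value was in each case the liver of A94, with 73.7 FPKM for Gstm3, where the other ADV-conditioned livers measured 20.1, 28.1 and 23.6 FPKM. Without A94 the estimates were 0.23 ± 0.21 for Gstm3, 0.29 ± 0.24 for Gstm4 and 0.12 ± 0.16 for Gstm2, the median of the 7 mu class genes was 0.12 against 0.02 over all genes, and Gstm1 stood at 0.45 ± 0.19. In that fit 0 of the 39 genes passed the adjusted limit.

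Sult1e1, which inactivates oestrogens, lay at 0.277, 0.259, 0.273 and 0.440 FPKM under LD and at 0.768, 0.363, 1.26 and 0.551 FPKM under ADV. The ranges overlapped only through L104 and A91, all values were low, and the liver of A94 was the highest. The difference was 0.93 ± 0.33 (limma p = 0.0191, adjusted p = 0.366, exact permutation p = 0.0571). Gsta1, an alpha class GST whose windows are shared with other genes, had an estimate of 1.01 ± 0.46 (limma adjusted p = 0.432, exact permutation p = 0.171) at means of 1.80 and 3.38 FPKM.

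Lower estimates were seen for the abundant Sult2a8, with 598, 559, 380 and 444 FPKM under LD and 365, 504, 226 and 313 FPKM under ADV. The groups overlapped, since A91 lay above L86 and L104. The difference was −0.53 ± 0.24 (limma adjusted p = 0.432, exact permutation p = 0.114), and −0.34 ± 0.20 without A94, the mouse with the lowest value. Sult1b1 had means of 18.2 ± 6.36 and 11.1 ± 4.83 FPKM (SD, n = 4) and an estimate of −0.74 ± 0.34 (limma adjusted p = 0.439, exact permutation p = 0.143). The leading UGT genes of the liver had close means in both conditions, with 534 ± 59.0 against 556 ± 83.7 FPKM for Ugt2b5, 388 ± 24.0 against 429 ± 68.0 for Ugt2b36 and 301 ± 17.7 against 282 ± 28.5 for Ugt1a1, and estimates of 0.05 ± 0.14, 0.13 ± 0.13 and −0.10 ± 0.10 (SE). Without A94 they stood at 0.17 ± 0.11, 0.22 ± 0.11 and −0.05 ± 0.10, with limma adjusted p = 0.522, 0.382 and 0.842.

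**Figure D3:**
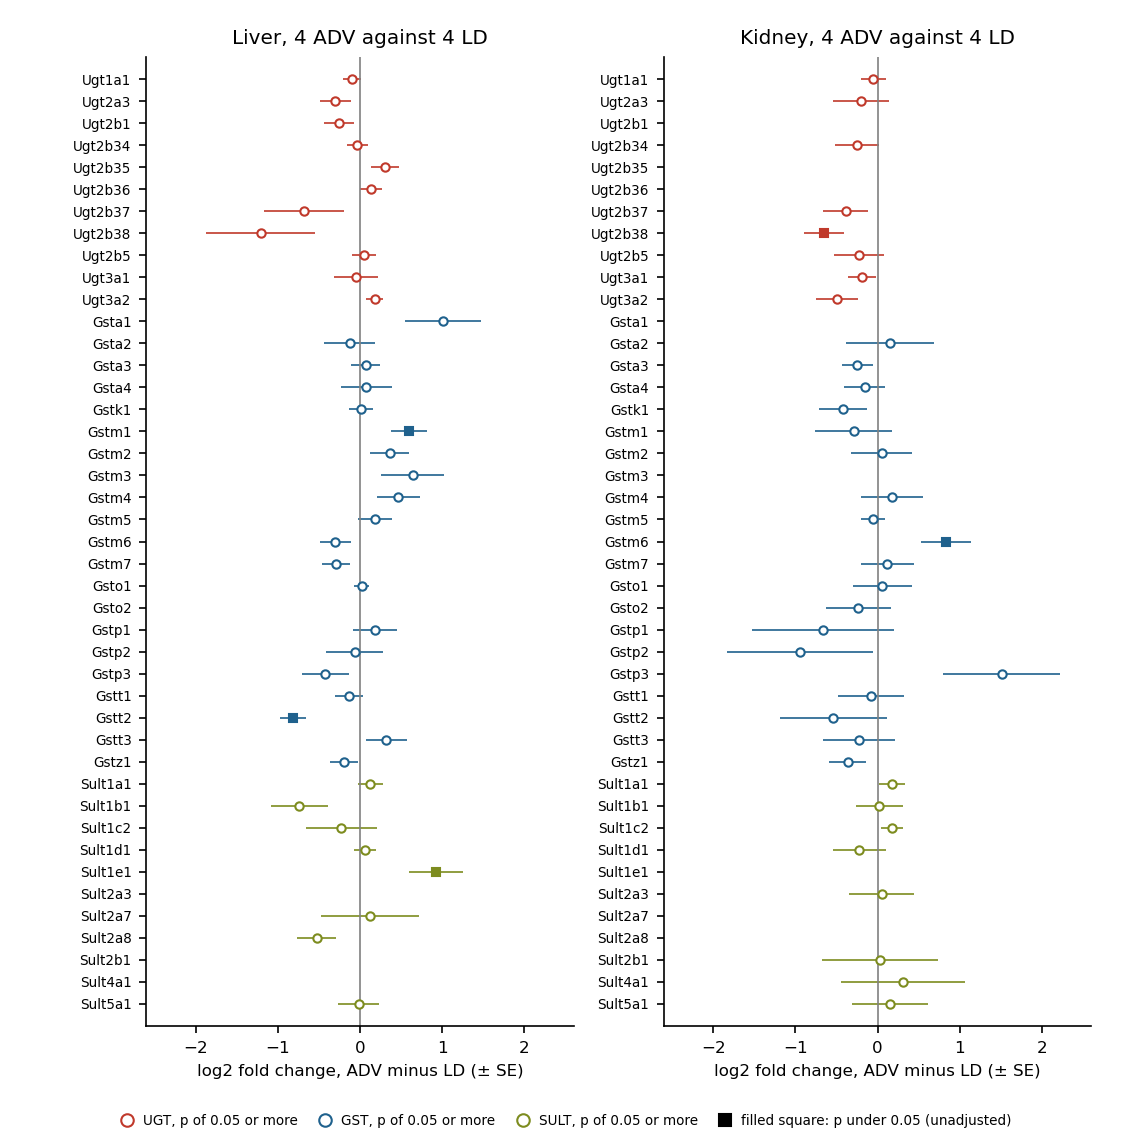
Difference between ADV-conditioned and LD-conditioned mice on the log2(FPKM + 0.1) scale, with its standard error from limma, for every gene that passed the filter in the liver (left) or the kidney (right). Filled squares have an unadjusted p under 0.05, and an empty line means that the gene did not pass the filter in that organ. All 8 UGT genes of the kidney lie left of 0, Gstt2, Gstm1 and Sult1e1 are marked in the liver and Ugt2b38 and Gstm6 in the kidney, and none passed the adjustment over all genes.

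In the kidney, 0 of 35 genes passed a limma adjusted p of 0.05, as did 0% of all 14452 genes tested. At an unadjusted p under 0.05, 1 gene was higher and 1 lower, beside 1.75% and 1.35% of all genes. The ADV values lay above all LD values in 0 and below them in 1 gene, beside 0.962% and 1.83%. The estimates pointed up in 14 and down in 21 genes, with a median of −0.16, against −0.02 over all genes. Over all genes 46.4% of the estimates were positive. They pointed down in all 8 UGT genes (median −0.24) and in 12 of 19 GST genes, and up in 7 of 8 SULT genes. Without A115 the estimates of the 35 genes pointed up in 20 and down in 15, with a median of 0.05 against 0.20 over all genes, and 6 were higher and 1 lower at the unadjusted limit, beside 29.5% and 7.58% of all genes. In that fit 7 of 8 UGT genes pointed down (median −0.34) and 14 of 19 GST genes and 5 of 8 SULT genes up, so that the direction of the GST genes turned. With all 8 mice, all 12 proximal tubule markers had negative estimates (median −0.27). All 8 macrophage and monocyte markers tested, all 10 T, B and plasma cell markers, 9 of 10 stellate cell and fibroblast markers and all 7 cholangiocyte markers had positive ones (medians 0.78, 0.81, 0.62 and 0.32), and 0 of all these markers were called. The T, B and plasma cell marker sum was 563 FPKM in the kidney of A94. The other ADV-conditioned kidneys had 64.9, 50.9 and 19.2 FPKM, and the LD-conditioned ones 35.2 to 50.2 FPKM. The part of these cell types in the values below was not tested.

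Ugt2b38, the second most abundant UGT transcript of the kidney, measured 400.5, 416, 327 and 466 FPKM under LD and 264, 307, 164 and 319.7 FPKM under ADV. Every ADV-conditioned kidney lay below every LD-conditioned kidney. The difference was −0.65 ± 0.24, with limma p = 0.0285 and adjusted p = 1.0 (exact permutation p = 0.0286). In the liver, where the gene is low, its estimate was −1.21 ± 0.66 (−0.71 ± 0.57 without A94), and L104 with 9.11 FPKM stood above the other 7 livers. Its neighbour Ugt2b37 had 72.8, 86.1, 83.9 and 104.5 FPKM under LD and 73.8, 93.7, 38.0 and 71.4 FPKM under ADV, which overlapped, and an estimate of −0.39 ± 0.28. Without A94, the lowest kidney for both genes, the estimates were −0.43 ± 0.19 for Ugt2b38 and −0.12 ± 0.19 for Ugt2b37 (limma adjusted p = 0.999 for both).

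Ugt3a2, the leading UGT transcript of the kidney, measured 662, 670.5, 599 and 712 FPKM under LD and 379, 735, 507 and 340.5 FPKM under ADV. A91 was the highest of all 8 kidneys, and the other 3 ADV-conditioned kidneys lay below the whole LD group. The difference of −0.49 ± 0.25 did not pass (limma adjusted p = 1.0, exact permutation p = 0.143). Gstz1 had an estimate of −0.36 ± 0.22 with means of 181 ± 19.0 and 145 ± 36.8 FPKM (SD, n = 4), and of −0.15 ± 0.11 without A115, which measured 90.8 FPKM where the other kidneys had at least 153 FPKM. Gstm6, a mu class GST, was low and measured 1.04, 1.17, 2.11 and 1.78 FPKM under LD and 3.52, 1.78, 3.02 and 2.78 FPKM under ADV, with an overlap through A91 and an estimate of 0.84 ± 0.30 (limma adjusted p = 1.0, exact permutation p = 0.0857). Gstp3 (1.51 ± 0.71) and Sult1c2 (0.18 ± 0.13) were the next genes with a positive estimate in the order of their p, and Gstp3 did not pass the filter without A94.

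**Figure D4:**
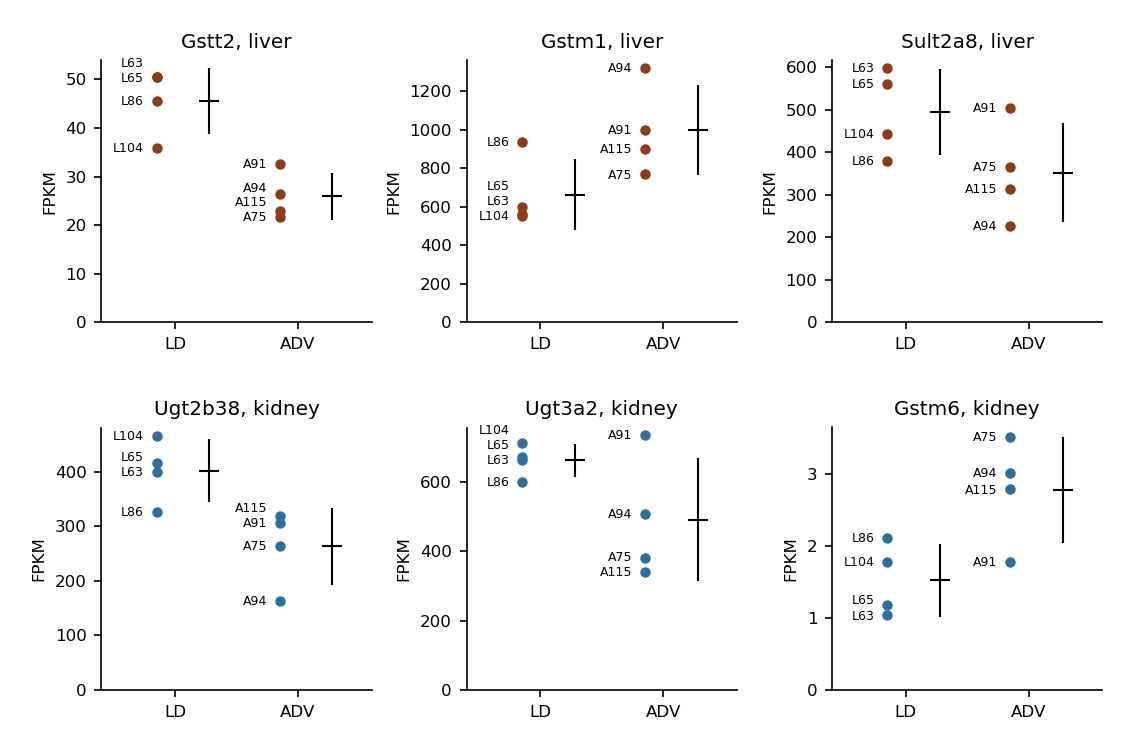
FPKM of 6 genes in each mouse, on axes that start at 0, with the mean and SD (n = 4) of each condition beside the points. The upper row shows the liver and the lower row the kidney, and labels name the mice. The groups do not overlap for Gstt2 in the liver and Ugt2b38 in the kidney, and they overlap in the other 4 plots.

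The kidney counts depended on mouse A115. Without it, 4 of 35 genes passed a limma adjusted p of 0.05, beside 16.1% of 14475 genes called higher and 2.68% called lower. Gstm4 rose by 0.58 ± 0.13 (adjusted p = 0.0235), Gstm7 by 0.46 ± 0.12 (0.0343) and Gstm2 by 0.45 ± 0.12 (0.0384), and Ugt2b38 fell by 0.75 ± 0.22 on the log2 scale (0.0453). The 3 remaining ADV-conditioned kidneys measured 6.22, 6.12 and 7.39 FPKM for Gstm4, above the 4.03, 4.91, 3.89 and 4.66 FPKM of the LD-conditioned kidneys. The median of all genes was 0.20 in that fit. With median ratio size factors and without A115, the shares of all genes were 8.31% and 7.70%, and Ugt2b38 alone of the 35 was called, with −0.94 ± 0.25 (adjusted p = 0.0390). Gstm4, Gstm7 and Gstm2 then stood at 0.39 ± 0.14, 0.27 ± 0.10 and 0.26 ± 0.11 (adjusted p = 0.0823, 0.0943 and 0.123), so that they kept their direction and lost their calls. The mitochondrial shares of the 3 remaining ADV-conditioned kidneys, 10.7%, 13.1% and 9.43%, lay below the 15.7% to 18.0% of the LD-conditioned kidneys, and their part in these calls was not tested. Without A94 as well as A115, 0 of the 34 conjugation genes tested were called, beside 4.70% of all genes, and Ugt2b38 stood at −0.49 (limma adjusted p = 0.0991).

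Whether the difference between the conditions itself differed between the organs was tested as the liver difference minus the kidney difference. Of 39 genes, 0 passed a limma adjusted p of 0.05, as did 0% of all genes. At an unadjusted p under 0.05, 1 was higher and 2 lower, beside 3.10% and 0.626% of all genes. Gstm6 gave −1.14 ± 0.36 (limma adjusted p = 1.0), with estimates of −0.30 in the liver and 0.84 in the kidney. Gstp3 gave −1.93 ± 0.81 and Ugt3a2 gave 0.67 ± 0.28, and the next genes by p were Sult2a8 (−0.53 ± 0.29), Gstm3 (1.21 ± 0.71) and Gstm1 (0.89 ± 0.55). Without A115 the value of Gstm1 was 0.42, and without A94 that of Sult2a8 was −0.34. Without A115, 1 of the 39 was called, beside 0.570% of all genes called higher and 2.31% called lower. This gene was Gstt2, with −0.97 ± 0.23 (limma adjusted p = 0.0437), where the fit of all mice gave −0.28 ± 0.71. With median ratio size factors and without A115 0 of the conjugation genes were called, beside 3.39% of all genes, and without both A94 and A115 again 0, beside 5.25%. In the kidney Gstt2 measured 91.9, 85.5, 70.8 and 74.0 FPKM under LD and 79.3, 90.9, 109 and 11.8 FPKM under ADV, where the last value is A115 and the other 3 lie within or above the LD range, in contrast to the liver.

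Summed over a family, the kidney UGT2 genes gave 425 to 582 FPKM in the LD-conditioned and 212 to 413 FPKM in the ADV-conditioned mice, which did not overlap, and the ratio of the means was 0.685. Ugt2b38 supplied most of these sums. The UGT sum of the kidney overlapped, with 1245 to 1519 FPKM under LD and 904 to 1407 FPKM under ADV. In the liver, the UGT sums had means of 2272 ± 122 and 2270 ± 307 FPKM (SD, n = 4), the GST sums ran from 3492 to 4495 and from 4096 to 4864 FPKM, and the mu class sums from 705 to 1117 and from 930.3 to 1606 FPKM. The liver sum of the SULT2 and SULT3 genes, nearly all of it Sult2a8, was 386 to 602 FPKM under LD and 228 to 521 FPKM under ADV. None of these sums was tested.

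In the kidney of A115, 16 of 19 GST genes lay below the range of the other 7 kidneys and 0 above it, where 55.4% of all genes lay below and 19.1% above. Gstp1 measured 8.08 FPKM against 89.8 to 153 FPKM in the others, Gstt2 11.8 against 70.8 to 109 FPKM, and Gstm1 79.1 against 235 to 367 FPKM. Of 8 UGT genes only 2 lay below and 1 above, and of 8 SULT genes 2 below and 3 above, among them Sult1d1 with 670.0 FPKM against 210.4 to 513 FPKM. Tubule markers moved in the same library. Of 12 proximal tubule markers 9 lay below and 2 above the other kidneys, with Slc34a1 at 154 against 801 to 1553 FPKM and the androgen-dependent Kap at 45922 against 16595 to 38937 FPKM, and 7 of 8 collecting duct and 4 of 7 loop and distal tubule markers lay below. The part of these cell types in the GST values was not tested.

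In the liver of A94, 9 of 11 UGT genes lay below the range of the other 7 livers and 1 above, while 8.32% of all genes lay below and 49.7% above. Ugt2a3 measured 113 FPKM there and Ugt3a1 24.2 FPKM, against lowest values of 174 and 38.2 FPKM elsewhere. The GST genes were split, with 6 of 20 below and 6 above, and of 8 SULT genes 4 lay below and 2 above. The kidney of the same mouse showed 5 of 8 UGT genes below the other kidneys, beside 5.61% of all genes. In that kidney the T, B and plasma cell marker sum was 563 FPKM, against 19.2 to 64.9 FPKM in the others, and the macrophage marker sum 399 FPKM, against 53.6 to 166 FPKM. The hepatocyte marker sum of the liver of A94, 62449 FPKM, was the lowest of the 8, and its macrophage marker sum of 633 FPKM compared with 144 to 276 FPKM in the others. The part of immune cells in the lower UGT levels was not tested.

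**Figure D5:**
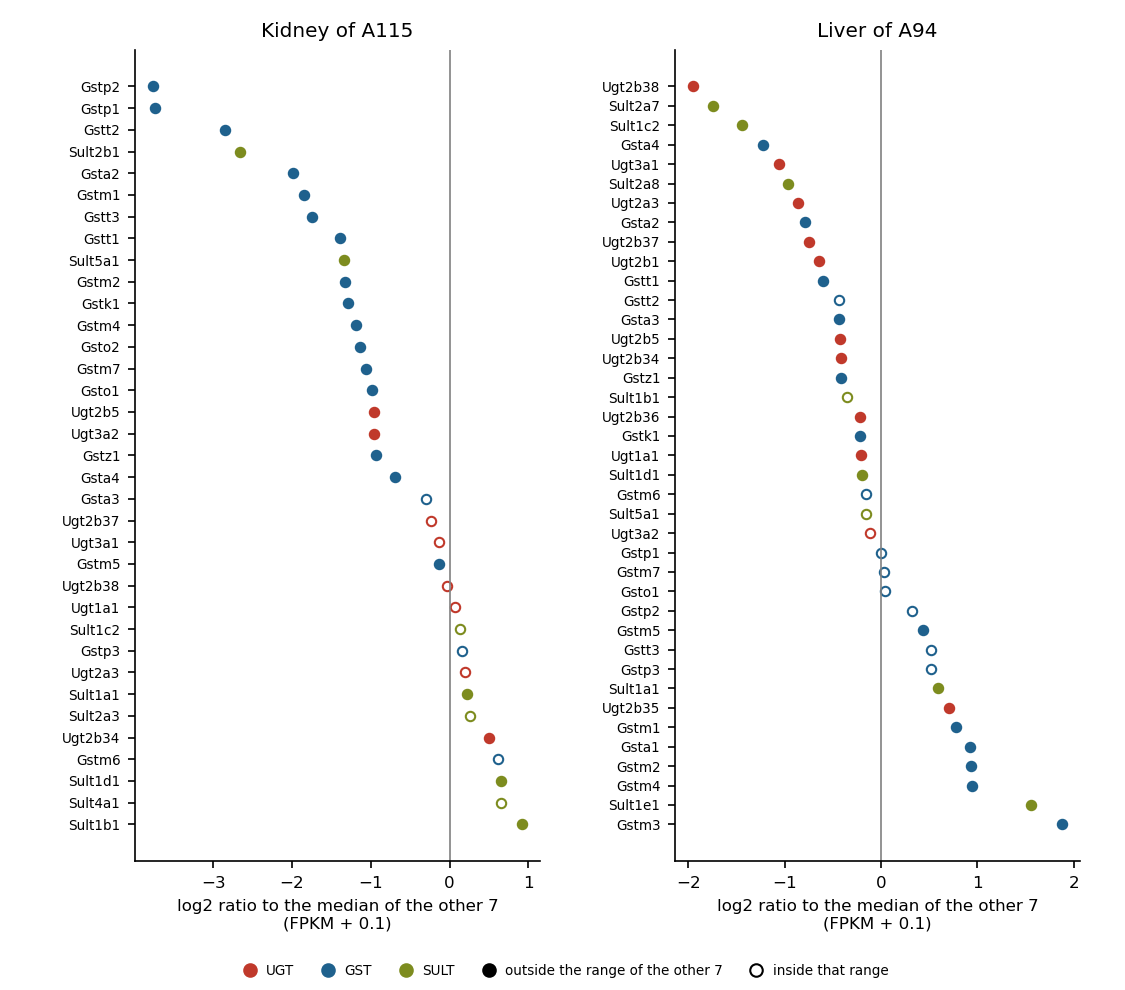
Level of each gene in the kidney of A115 (left) and the liver of A94 (right) as the log2 ratio of FPKM + 0.1 to the median of the other 7 libraries of that organ. Filled points lie outside the range of the other 7, and colours mark the families. Most genes at the lower end for the kidney of A115 are GST genes, down to −3.76 for Gstp2, with Sult2b1 at −2.65 among them. UGT genes lie mostly left of 0 for the liver of A94.

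The genes that supply, remove or control the conjugates were followed in 7 lists (UDP-glucuronate supply, PAPS supply, glutathione, mercapturates, microsomal and other conjugating enzymes, export and regulators). Between ADV-conditioned and LD-conditioned mice 0 genes of any list passed a limma adjusted p of 0.05 in either organ. In the liver, 16 of 21 regulators of phase II genes had negative estimates, with a median of −0.18 against 0.10 over all genes, and their summed level was 848 to 946 FPKM under LD and 695 to 809 FPKM under ADV. At an unadjusted p under 0.05, 4 of them were lower and 0 higher, beside 3.13% and 8.65% of all genes. These were Nr1i3, the xenobiotic receptor CAR (68.0 and 46.3 FPKM, −0.56 ± 0.11, adjusted p = 0.234), Ppara, the fatty acid receptor (47.3 and 28.5 FPKM, −0.75 ± 0.18, adjusted p = 0.296), Hnf4a and Nr1i2, the receptor PXR. In the kidney with all mice, Ppara (−0.72 ± 0.29) and the clock output factor Hlf (−0.51 ± 0.21) were lower at that limit, with adjusted p = 1.0. There 1.35% of all genes were lower at the same limit. The kidney sum of the regulators was 280 FPKM in A115 and 442, 572 and 529 FPKM in the other ADV-conditioned kidneys. Under LD it was 457 to 524 FPKM. Values of Ppara and Hlf without A115 are not given here.

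Of the glutathione list, 13 of 16 liver estimates were positive (median 0.17), where 65.7% of all genes were positive (median 0.10), and Ggct, Cbs and Ggt6 had an unadjusted p under 0.05, a limit at which 8.65% of all genes were higher, with Cbs, which starts the path from homocysteine to cysteine, at 70.9 and 102 FPKM (0.50 ± 0.18, limma adjusted p = 0.375). In the kidney 13 of 18 were negative, and Gclm, the modifier subunit of the enzyme that starts glutathione synthesis, had −0.44 ± 0.17. In the list of the mercapturate pathway, which trims glutathione conjugates, 12 of 13 kidney estimates were negative (median −0.40, against −0.02 over all genes), with Nat8f2 at −0.63 ± 0.22. The kidney sums of the glutathione list in A115, 921 FPKM, and of the mercapturate list, 693 FPKM, lay far below the lowest sums of the other kidneys, 2638 and 2142 FPKM. The other 3 ADV-conditioned kidneys had glutathione sums of 3366, 3098 and 3195 FPKM, above the 2638 to 3032 FPKM of the LD-conditioned kidneys. Their mercapturate sums of 2790, 3009 and 2318 FPKM lay within or above the LD range of 2142 to 2927 FPKM. Of the ADV-conditioned kidneys only that of A115 lay below the LD range in either list. In the liver Kyat1 and Acy3 of that list had positive and Acy1 a negative estimate at the unadjusted limit.

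Papss2, which makes the sulfate donor PAPS, had liver means of 61.7 and 41.6 FPKM (−0.59 ± 0.18, limma adjusted p = 0.322), and the transporter gene Slc35b3 had 0.40 ± 0.14. In the list of UDP-glucuronate supply, Pgm1 (0.48 ± 0.19) and Pgm2 (−0.25 ± 0.11) had an unadjusted p under 0.05 in the liver. Among the conjugate exporters Abcc6 had −0.43 ± 0.13 in the liver and Abcb1a −0.57 ± 0.24 in the kidney. Of the microsomal GST and other conjugating enzymes, Ptges (1.17 ± 0.34) and Inmt (−0.74 ± 0.32) in the liver and Glyat (−0.56 ± 0.17) in the kidney passed the same unadjusted limit. The kidney values of Abcb1a and Glyat are from the fit of all mice, with A115 included. The kidney sum of the list with Glyat was 842 FPKM in A115 and 1415, 1780 and 1486 FPKM in the other ADV-conditioned kidneys. Under LD it was 1675 to 1873 FPKM. Between the organs under LD, 8 of 13 mercapturate genes were called kidney-higher and 1 liver-higher. Of 21 regulators, 11 were called liver-higher and 2 kidney-higher. Beside these, 55.3% of all genes were called kidney-higher and 11.0% liver-higher, so that the mercapturate count lay near the share of all genes. With median ratio size factors these shares were 29.5% and 25.0%, and counts for the lists with that scaling are not given here.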

How the data were processed

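The authors trimmed paired-end reads of stranded poly(A) libraries with Trimmomatic, mapped them to GRCm38/mm10 with STAR (2.5.4b per the submitters' notes), dropped poorly mapped reads with SAMtools and summed exon fragments with Homer over knownCanonical genes of UCSC. The deposited values are FPKM, each library divided by its own total, although their headers say RPKM. Multiplied by exon length and library total, 100% of the values fell on steps of 0.5 fragment (tolerance 0.02). Whether counting used strand is not given in the sources used here. DESeq2, which the authors ran on counts, was not run here.

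Log2(FPKM + 0.1) was tested with limma 3.58.1 (R 4.3.3; lmFit, eBayes with trend, two-sided) over all genes whose mean FPKM times exon length in kb was above 0.5, with Benjamini-Hochberg adjustment over all of them, in each organ apart for ADV against LD and over 16 libraries for the organs. Single genes were compared by exact permutation over the 70 assignments of 4 of 8 mice. P-values set a difference against the spread between mice. The organ comparisons without a block took the liver and kidney of a mouse as independent, and the fit with the mouse as a block pairs them. Each result was recomputed with a pseudocount of 0.5 or 1, without the filter, with a mean FPKM above 1, 3 other scalings, without the trend, with limma-voom on recovered fragments, with the mouse as a block, in a joint fit of both organs, and without single mice. Leaving out A94 and A115 together was added after the data had been seen. The procedure was tested on simulated data.

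The genes, lists, rule for named genes (smallest p in each direction, highest levels in each family, largest organ differences, and list genes with unadjusted p under 0.05) and tests were chosen with earlier results of these data known. Libraries carry the number of the mouse in both organs, which pairs them by animal. Across 12319 genes, how far a mouse lay from its group mean correlated between its organs with r from −0.0242 to 0.553, above 0.1 in 5 of 8 mice. Shared windows were counted in GENCODE transcripts, promoters taken from RefSeq (GRCm38.p6) and aligned with Biopython 1.88. Protein sequences and the 65-week mice were not analysed here.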

Additional observations from a re-analysis of the deposited data

Results flagged for a closer look

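In 3 of 60 groups of 4 libraries examined (5.0%), 1 mouse lay farther from the other 3 than the 95% critical value of Dixon's ratio allows, and chance alone marks about 1 in 20 groups. Gstm1 in the LD-conditioned livers was 938 FPKM in L86, where the nearest value was 598 and the lowest 554 FPKM (ratio 0.885). Sult1e1 in the LD-conditioned livers was 0.440 FPKM in L104, where the nearest was 0.277 FPKM (ratio 0.900). The UGT sum of the ADV-conditioned kidneys was 1407 FPKM in A91, where the nearest was 961 and the lowest 904 FPKM (ratio 0.886).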

How the results depend on the processing

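With 4 mice a group, the smallest exact p is 0.0286. Of the values that answer a comparison, 188 under the alternatives stayed within 1.5 times and 3 did not. The exceptions were the kidney genes called for ADV against LD, 1 with median ratio size factors and mouse A115 left out (Ugt2b38) and 0 to 4 over the fits without single mice (4 without A115), and the organ difference, 0 to 1 (1 without A115). With the mouse as a replicate block, organ calls were 32 under LD and 37 under ADV (35 without the block), the organ difference stayed at 0, and Gstt2 and Ugt3a1 gained a call under ADV (limma adjusted p = 0.0451 and 0.0380), and no other organ call changed. Of the conjugation genes tested between ADV and LD, 6 of 39 changed sign in the liver without A94 and 10 of 35 in the kidney without A115. Of the genes named by rule, the following uncalled ones changed sign. Sult1c2 in the kidney was −0.0139 with median ratio size factors and A115 left out. Gstm2 under LD was −0.0216 with totals without mitochondrial genes and from −0.0614 (without L63) to 0.257 without single mice, and under ADV −0.0415 without A94 and A115. Gsta2 under LD was 0.35 with median ratio size factors, 0.341 with A115 and 0.348 with A94 left out as well, and under ADV 0.491 with A94 left out. The cause was not tested. Sult1d1 lost its organ call under ADV with median ratio size factors and A115 (−0.53) or A94 (−0.90) left out.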
